A study of Mus musculus with 6 samples.

Results

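The genes described here code for 10 matricellular proteins: the CCN proteins *Ctgf*, *Cyr61*, *Nov*, *Wisp1* and *Wisp2*, the thrombospondins *Thbs1* and *Thbs2*, periostin (*Postn*), tenascin-C (*Tnc*) and osteonectin (*Sparc*). They were chosen by name, and all 10 were found among the 48733 named genes of the tables. RNA-seq was performed on 3 libraries labelled bone and 3 labelled osteoblasts, 6 in all, from mice of the inbred Collaborative Cross strain CC016/GeniUnc, for which no engineered allele is named. The bone libraries are labelled as cortical bone of the femur without its marrow and received no agent. The osteoblasts are labelled as derived from marrow, from adherent stromal cells that were kept for 8 days in medium holding 10 nM dexamethasone, beta-glycerophosphate at 10 mM and ascorbic acid at 50 µg/ml. The ages and sexes of the mice are not given in the sources used here, and although the femora and marrow came from 3 mice, so that bone and osteoblasts can share mice, the labels do not say which libraries came from the same mouse. Values are FPKM, which counts fragments relative to the length of the transcript and to all mapped fragments, a level that can be compared between genes because it is per length. Where 3 values follow each other for a label, they are those of its replicates 1, 2 and 3 in that order.

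Matricellular proteins are secreted into the extracellular matrix but do little to hold it together. They bind collagen, growth factors and cell surface receptors such as integrins, and so change how cells attach, move and respond to signals. In bone they are made by cells of the osteoblast lineage, where osteonectin and periostin are major non-collagen matrix proteins and thrombospondins and CCN proteins are produced by stromal cells and osteoblasts.

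The depth of the libraries, read from the ratio of coverage to FPKM, was 13566667 to 22586667 aligned read pairs, and a 1 kb transcript hit by 3 pairs would be at 0.133 to 0.221 FPKM. This floor covers counting error only, and no interval can be given without counts. The hemoglobin gene *Hbb-bt*, which is expressed in red blood cell precursors and not in osteoblasts, was above 1000 FPKM in the libraries labelled bone replicate 3 (34838 FPKM), osteoblasts replicate 2 (34268 FPKM) and osteoblasts replicate 3 (48650 FPKM). It was at 7.05 FPKM in bone replicate 1, 3.58 FPKM in bone replicate 2 and 3.43 FPKM in osteoblasts replicate 1. The first 3 are called the *Hbb-bt*-high libraries and the last 3 the *Hbb-bt*-low libraries, names that describe them and replace no label. The labels bone and osteoblasts therefore do not part the libraries as their blood genes do. If blood genes are taken to mark bone and not cultured osteoblasts, those of 4 libraries, bone replicates 1 and 2 and osteoblasts replicates 2 and 3, go against their labels. Bone labelled as free of marrow may also be low in *Hbb-bt*, so for bone replicates 1 and 2 this rests on that reading. Why *Hbb-bt* was low in those libraries was not tested. Every library is named here by its deposited label, and none was moved. The summed FPKM of all 6 measured markers of osteoblasts (*Runx2*, *Sp7*, *Alpl*, *Bglap2*, *Ibsp* and *Col1a1*) was 3151 to 4507 under the label bone and 3564 to 5043 under the label osteoblasts, with none of them at 0 in any library. Single markers parted in opposite directions: *Ibsp*, the bone sialoprotein gene, was at 1278, 986 and 43.1 FPKM in bone and 1004, 78.2 and 91.3 FPKM in osteoblasts, and *Bglap2*, an osteocalcin gene, at 264, 383 and 1959 FPKM in bone and 513, 1889 and 1641 FPKM in osteoblasts. Of the 6, *Ibsp* and *Alpl* were lower and *Bglap2* was higher in all 3 *Hbb-bt*-high libraries (16.9% and 38.4% of all genes). *Alpl* was at 95.4 to 205 FPKM in the *Hbb-bt*-low libraries and 66.0 to 94.1 FPKM in the others. *Runx2*, *Sp7* and *Col1a1* overlapped. With named genes scaled to the same sum, 4 were lower and 1 higher (47.4% and 21.7% of all genes). Features without a gene name took 71.5% of the summed FPKM in bone replicate 2 and 65.0% in osteoblasts replicate 1, against 27.4 to 30.7% in the other 4. Named genes summed to 355965 and 390066 FPKM in those 2 libraries and to 595021 to 875547 FPKM in the other 4. The share of fragments taken by features without a name was not measured, and its effect on single genes was not tested.

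In GRCm38, the build of the tables, *Ctgf* lies on Chr. 10 from 24595442 to 24598683 on the plus strand and *Cyr61* on Chr. 3 from 145646976 to 145649981 on the minus strand. *Nov* and *Wisp1* are plus-strand genes of Chr. 15, from 54745702 to 54754039 and from 66891320 to 66923201. *Wisp2* and *Thbs1* are plus-strand genes of Chr. 2, from 163820861 to 163833146 and from 118111876 to 118127133. *Thbs2* lies on the minus strand of Chr. 17 from 14665500 to 14694262, *Postn* on Chr. 3 (plus strand) from 54361109 to 54391037, *Tnc* on the minus strand of Chr. 4 from 63959785 to 64047015, and *Sparc* on the minus strand of Chr. 11 from 55394500 to 55423183. RefSeq annotates each as a protein-coding gene and now calls the CCN genes *Ccn2*, *Ccn1*, *Ccn3*, *Ccn4* and *Ccn5*, in the order given above. Each member had 1 feature in every table. Features on the opposite strand overlap *Ctgf*, *Thbs1*, *Thbs2*, *Tnc* and *Sparc* with at most 4.55 FPKM in any library, and since the counting is not stated to use strand, reads of such partners cannot be told apart.

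The promoters of the members were compared for sequence motifs. RefSeq windows of GRCm38.p6, from 250 bases before to 50 bases after a gene's start, were given for 5 of the 10 members (*Cyr61*, *Thbs2*, *Postn*, *Tnc* and *Sparc*), with 7 windows in all. The motifs, searched on both strands, were CATTCC, which TEAD factors bind together with YAP and TAZ, TGACTCA of AP-1, and TATAAA of the TATA box, and none overlaps another. Of 32851 windows of the same length, 14.7% hold CATTCC, 5.20% TGACTCA and 13.6% TATAAA. The *Cyr61* window holds CATTCC, its first base at -103 from the gene's start, and TATAAA at -25. The *Postn* window at the start nearest to the tables' feature holds TATAAA at -26, and those of *Thbs2* (on the other strand, so that it reads TTTATA in the printed run) and *Tnc* hold TATAAA at -126. The *Sparc* window holds none of the 3 motifs, and TGACTCA is in none of the 7 windows. A match is only a match of letters in this window. The 250 bases before the start are printed for *Cyr61*, *Postn* and *Thbs2*, the 3 of those 5 members whose levels ranged most widely over the libraries, and for *Tnc*, whose level ranged less, with the motifs in capitals: *Cyr61* on the minus strand (chr3:145649986-145650235), *Postn* on the plus strand (chr3:54360857-54361106), *Thbs2* on the minus strand (chr17:14694263-14694512) and *Tnc* on the minus strand (chr4:64047016-64047265).
Cyr61: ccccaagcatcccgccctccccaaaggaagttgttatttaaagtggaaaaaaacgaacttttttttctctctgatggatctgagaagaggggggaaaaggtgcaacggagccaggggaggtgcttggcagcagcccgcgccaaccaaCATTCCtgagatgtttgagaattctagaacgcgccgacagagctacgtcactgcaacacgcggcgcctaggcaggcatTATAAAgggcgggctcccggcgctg
Postn: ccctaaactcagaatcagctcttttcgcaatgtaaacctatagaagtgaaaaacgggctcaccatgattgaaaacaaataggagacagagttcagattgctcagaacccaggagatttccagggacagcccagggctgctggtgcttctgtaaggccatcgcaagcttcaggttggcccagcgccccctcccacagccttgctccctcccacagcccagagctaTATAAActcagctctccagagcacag
Thbs2: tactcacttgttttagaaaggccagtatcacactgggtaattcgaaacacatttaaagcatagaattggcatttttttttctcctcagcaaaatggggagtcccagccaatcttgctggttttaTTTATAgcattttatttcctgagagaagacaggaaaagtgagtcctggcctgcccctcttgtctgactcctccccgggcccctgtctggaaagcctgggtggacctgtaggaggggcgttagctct
Tnc: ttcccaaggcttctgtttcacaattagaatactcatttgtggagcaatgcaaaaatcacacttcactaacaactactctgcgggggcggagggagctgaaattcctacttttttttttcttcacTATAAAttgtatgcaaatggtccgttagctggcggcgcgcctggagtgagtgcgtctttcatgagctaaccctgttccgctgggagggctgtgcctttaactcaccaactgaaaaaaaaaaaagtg

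The CCN proteins share a modular build and bind integrins and growth factors, and *Ctgf* and *Cyr61* are classical targets of the YAP/TAZ coactivators. *Ctgf*, connective tissue growth factor, measured 312, 161 and 24.6 FPKM in bone and 147, 25.2 and 26.0 FPKM in osteoblasts. *Cyr61* measured 159, 75.4 and 10.1 FPKM in bone and 67.8, 7.36 and 10.8 FPKM in osteoblasts. Both genes were high in the *Hbb-bt*-low libraries and low in the *Hbb-bt*-high ones, so that the ranges of the labels overlapped while these 2 sets of libraries did not. *Wisp2*, which lacks the C-terminal domain of the other CCN proteins, had the same order, with 237, 127 and 13.3 FPKM in bone and 151, 17.2 and 10.97 FPKM in osteoblasts. *Wisp1*, a target of Wnt signaling that is expressed in osteoblasts, was less abundant, with 26.8, 18.6 and 7.05 FPKM in bone and 28.5, 7.70 and 6.61 FPKM in osteoblasts. It too was low in the 3 *Hbb-bt*-high libraries. *Nov* was the least abundant member in each library, with 3.20, 0.624 and 1.23 FPKM in bone and 2.04, 0.543 and 0.484 FPKM in osteoblasts. Its low value in bone replicate 2 lay below that of bone replicate 3, so its *Hbb-bt*-high and *Hbb-bt*-low libraries overlapped.

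The thrombospondins inhibit the growth of blood vessels, and thrombospondin-1 also activates latent TGF-beta. *Thbs1* measured 1067, 631 and 77.4 FPKM in bone and 733, 77.4 and 90.2 FPKM in osteoblasts. *Thbs2* measured 389, 200 and 18.7 FPKM in bone and 221, 14.6 and 11.1 FPKM in osteoblasts. The lowest *Thbs2* value among the *Hbb-bt*-low libraries was 10.7 times the highest among the other 3 libraries, the widest such gap of the 10 members. For *Thbs1* this gap was 7.00 times, for *Wisp2* 7.39 times, for *Cyr61* 6.28 times, for *Ctgf* 5.66 times and for *Wisp1* 2.42 times.

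Periostin is a matrix protein of the periosteum, tenascin-C is made where matrix is laid down or remodeled, and osteonectin binds collagen and calcium. *Postn* measured 290, 342 and 20.2 FPKM in bone and 141, 21.0 and 16.7 FPKM in osteoblasts, with a gap of 6.73 times. *Tnc* measured 325, 112 and 105 FPKM in bone and 289, 112 and 111 FPKM in osteoblasts. Only bone replicate 1 and osteoblasts replicate 1 were high for *Tnc*, and bone replicate 2 lay among the *Hbb-bt*-high libraries. *Sparc*, the most abundant member in every library, measured 1680, 989 and 1148 FPKM in bone and 1216, 991 and 1028 FPKM in osteoblasts. Its highest value was 1.698 times its lowest, whereas this range was 35.1 times for *Thbs2*, 21.6 times for both *Wisp2* and *Cyr61* and 20.5 times for *Postn*.

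**Figure D1:**
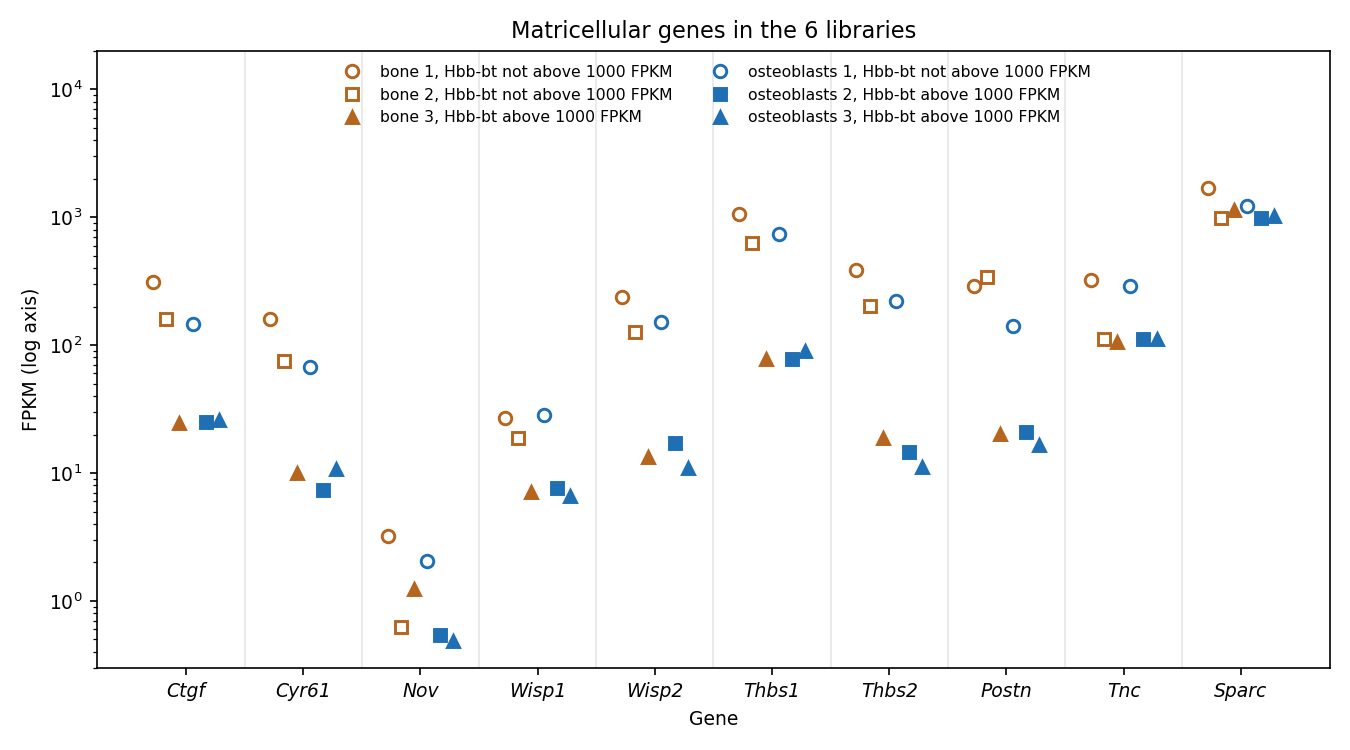
FPKM of each member (log axis) in the 6 libraries; color gives the deposited label, the marker shape the replicate number, and filled markers the *Hbb-bt*-high libraries. For *Ctgf*, *Cyr61*, *Wisp1*, *Wisp2*, *Thbs1*, *Thbs2* and *Postn* the 3 filled markers all lie below the 3 open ones, whichever the label, while *Nov*, *Tnc* and *Sparc* overlap.

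In 7 of the 10 members, the 3 *Hbb-bt*-high libraries were all lower than the other 3. Among the 12112 genes that averaged at least 1 FPKM, 16.9% had this order. *Cyr61*, *Postn* and *Thbs2*, whose promoters are printed, had it, and *Tnc*, printed with them, did not. These promoters were picked by how widely the levels ranged, so this split comes with that choice. TATAAA is in all of the printed runs, and no motif was tested against the order. No member had the opposite order, which 38.4% of those genes had. These shares are a description of the libraries with no test, since the libraries are divided by a measured gene and not by their labels. In bulk RNA, fewer cells of a type and less RNA per cell cannot be told apart.

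The order of *Nov*, *Tnc* and *Sparc* depended on the scaling. When each library was scaled so that its named genes summed to the same total, *Sparc* was at 2824, 2779 and 1311 in bone and 3118, 1151 and 1248 in osteoblasts. *Tnc* on this scale was at 546, 314 and 120 in bone and 740, 130 and 135 in osteoblasts. *Nov* was at 5.38, 1.75 and 1.405 in bone and 5.24, 0.631 and 0.588 in osteoblasts. With this scaling all 10 members were lower in the 3 *Hbb-bt*-high libraries, an order that 47.4% of 13197 genes then had. Named genes summed to 355965 to 595021 FPKM in the *Hbb-bt*-low libraries and 823607 to 875547 FPKM in the others, so this scaling raises the former relative to the latter. The gap between the nearest libraries was then 2.12 times for *Sparc*, 2.33 times for *Tnc* and 1.25 times for *Nov*, against 26.3 times for *Thbs2*. As TPM, also rescaled within each library, *Nov*, *Tnc* and *Sparc* still overlapped. There 7 of the 10 members were lower in the *Hbb-bt*-high libraries, beside 16.0% of 11775 genes.

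**Figure D2:**
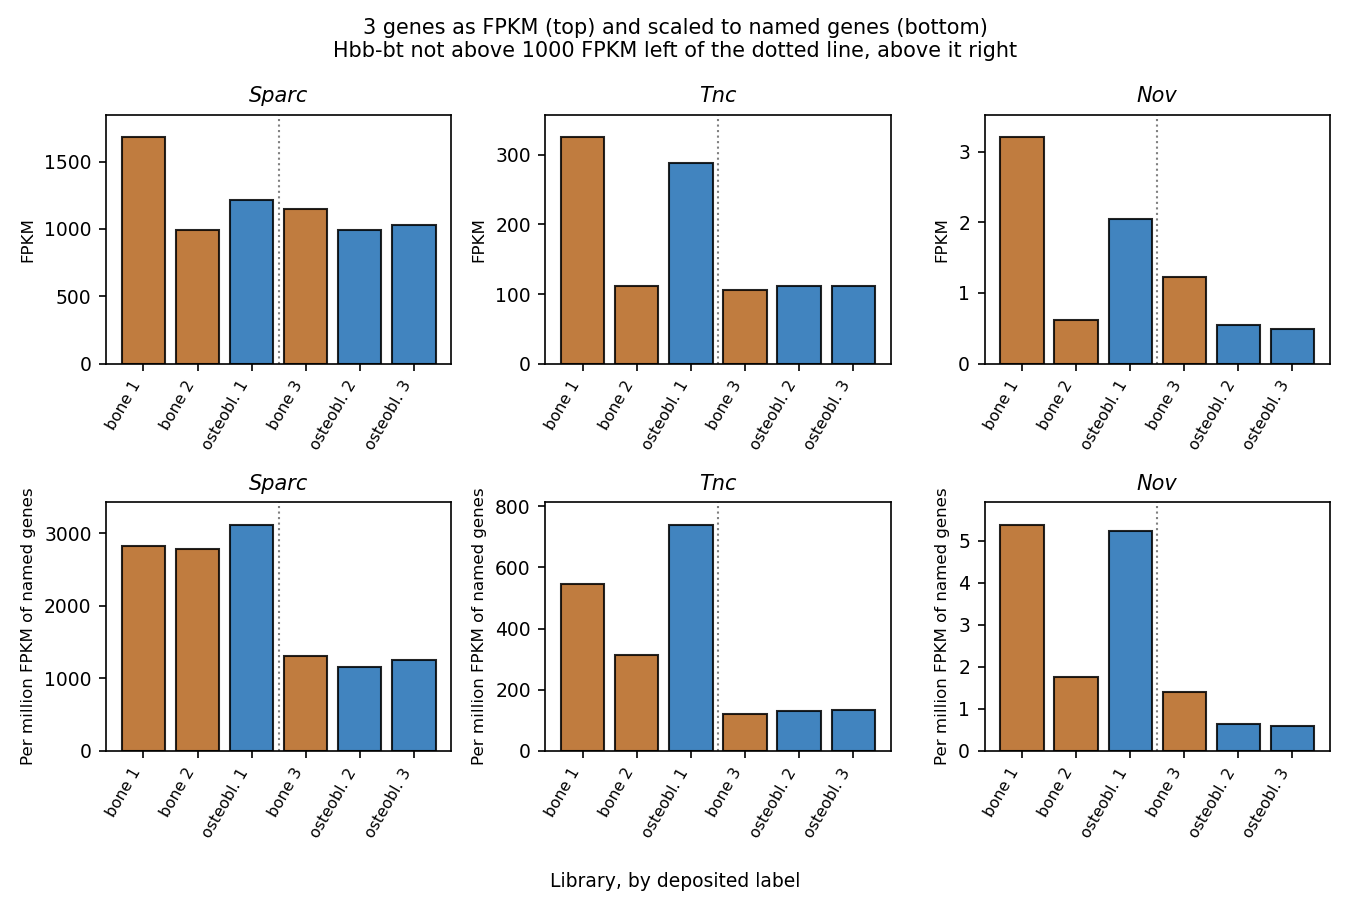
*Sparc*, *Tnc* and *Nov* in each library as FPKM (top) and scaled to an equal sum of named genes (bottom); bars are single libraries, brown for the label bone and blue for osteoblasts, and *Hbb-bt* is above 1000 FPKM to the right of the dotted line. The libraries on its sides overlap as FPKM and do not overlap after scaling to named genes, where *Sparc* is at 2779 to 3118 on the left and 1151 to 1311 on the right.

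Shares within a library do not depend on its scaling. *Sparc* made up 37.4, 37.2 and 80.5% of the summed FPKM of the 10 members in bone and 40.6, 77.8 and 78.4% in osteoblasts. *Thbs1* was the second most abundant member in the *Hbb-bt*-low libraries, with 23.7 to 24.5%, and had 5.43 to 6.87% in the others. *Tnc*, the second most abundant in the *Hbb-bt*-high libraries, took 7.24, 4.20 and 7.38% in bone and 9.63, 8.79 and 8.47% in osteoblasts. Those ranges of *Tnc* overlap, while the ranges of *Sparc* and *Thbs1* do not. The 10 members together were 0.747 to 0.768% of the FPKM of named genes in the *Hbb-bt*-low libraries and 0.148 to 0.163% in the *Hbb-bt*-high ones. By rank, *Thbs2* was above 99.0 to 99.3% of the genes at 1 FPKM or more in the *Hbb-bt*-low libraries and above 67.0 to 79.9% in the others, whereas *Sparc* was above 99.4 to 99.8% in all 6.

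**Figure D3:**
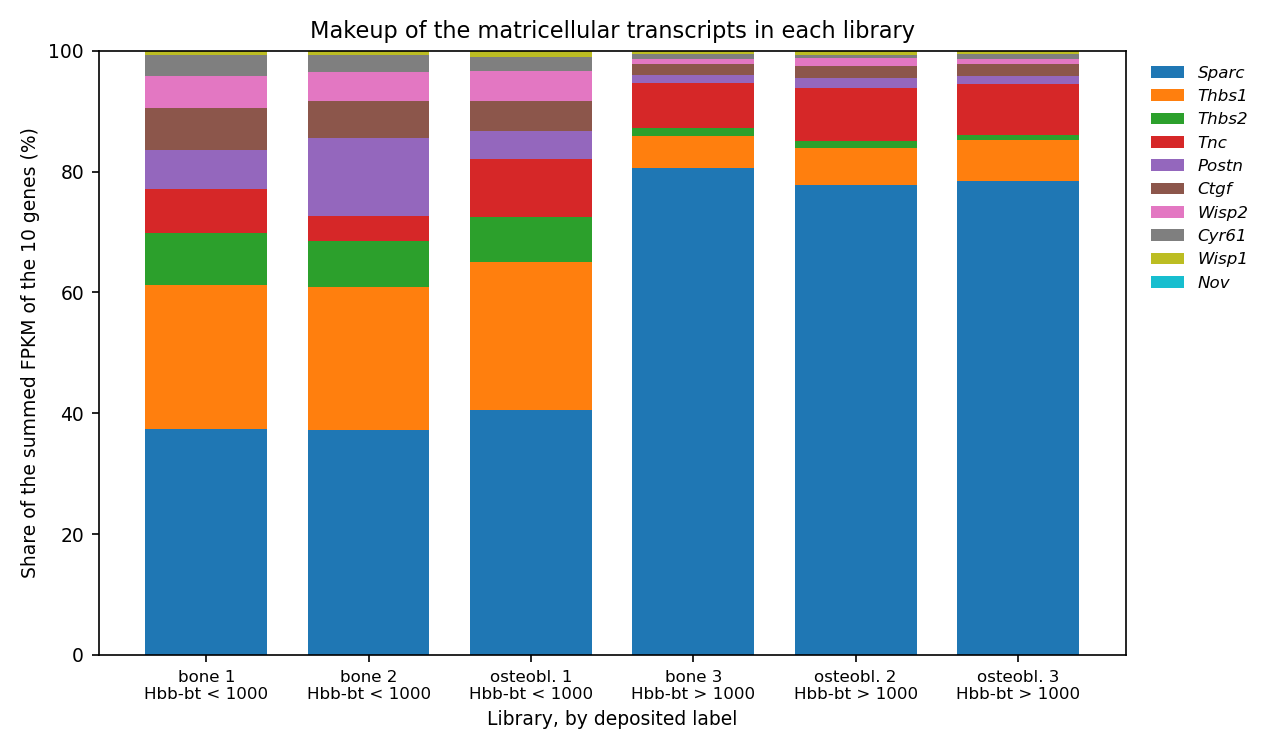
Share of each member in the summed FPKM of the 10 members, 1 stacked bar per library, with the *Hbb-bt*-low libraries on the left and the *Hbb-bt*-high libraries on the right. *Sparc* takes 37.2 to 40.6% on the left and 77.8 to 80.5% on the right, and *Thbs1* 23.7 to 24.5% and 5.43 to 6.87%.

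To ask whether bone and osteoblasts differ as labelled, the libraries were compared on log2(FPKM + 1) with limma over all 12112 genes. No member passed the test: the mean of each was lower under the label osteoblasts, by no more than the spread between the libraries of a label allows. *Postn* was at 218 ± 173 FPKM in bone and 59.7 ± 70.8 FPKM in osteoblasts as labelled (mean ± SD, n = 3 each), a log2 difference of -1.75 with a standard error of 1.17. *Thbs2* was at 203 ± 185 and 82.2 ± 120 FPKM, a log2 difference of -1.74 with a standard error of 1.33. *Tnc*, at 181 ± 125 and 171 ± 102 FPKM, had a log2 difference of -0.03 (standard error 0.68), and *Sparc*, at 1272 ± 362 and 1078 ± 121 FPKM, one of -0.21 (standard error 0.61). The other 6 members had log2 differences from -1.44 (*Cyr61*) to -0.38 (*Nov*), and the limma adjusted p was 0.999 for each of the 10. limma called 0% of the 12112 genes at a Benjamini-Hochberg adjusted p under 0.05. At an unadjusted p under 0.05 there were 17 genes and no member, the smallest p of a member being 0.169 by limma for *Postn*. The median log2 difference of the 10 members was -1.16, beside 0.12 over all genes tested.

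The values of the 3 osteoblasts libraries overlapped those of the 3 bone libraries in all 10 members. Among the 12112 genes, 0.479% were higher and 0.438% lower in all 3 osteoblasts libraries than in all 3 bone libraries. The differences between the labels rested on which libraries were used. In bone replicate 3 and osteoblasts replicate 1 alone, where the blood genes do not go against the labels, every member was higher in the osteoblasts library, by 0.08 on the log2 scale for *Sparc*, by 0.45 for *Nov*, by 1.45 for *Tnc*, by 1.88 for *Wisp1* and by 2.53 (*Ctgf*) to 3.49 (*Thbs2*) for the other 6. This compares 2 libraries and has no replicate check. Bone replicate 3 is *Hbb-bt*-high and osteoblasts replicate 1 is *Hbb-bt*-low. For the 7 members lower in all 3 *Hbb-bt*-high libraries, the direction therefore follows from that order and is no separate observation. Without osteoblasts replicate 1, *Thbs2* passed the test with a log2 difference of -3.08 (limma adjusted p = 0.0258). Of 12362 genes limma then called 312 higher and 48 lower under the label osteoblasts. Osteoblasts replicates 2 and 3, which remain, are both *Hbb-bt*-high, while bone replicates 1 and 2 are *Hbb-bt*-low. A difference by label can therefore hardly be told from one by *Hbb-bt* there. Without bone replicate 3 limma called 1 gene higher and 2 lower of 11890, none of them a member.

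**Figure D4:**
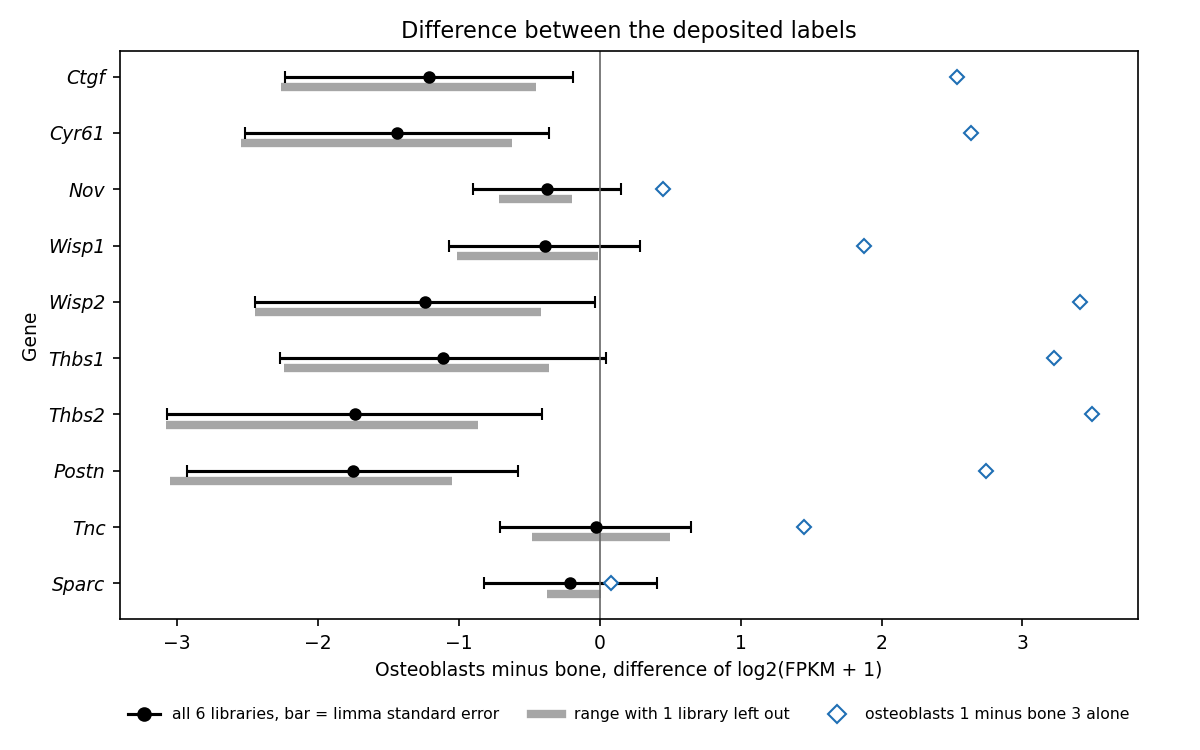
Difference of log2(FPKM + 1), osteoblasts minus bone, for each member: black points with the limma standard error use all 6 libraries, gray bars give the range when 1 library is left out, and open diamonds osteoblasts replicate 1 minus bone replicate 3. The black points lie from -1.75 to -0.03 and the diamonds from 0.08 to 3.49.

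Ratios of members with related functions were then compared within each library. The ratio of *Thbs2* to *Thbs1* was 0.364, 0.318 and 0.242 in bone and 0.301, 0.189 and 0.123 in osteoblasts. On the log2 scale it averaged -1.72 ± 0.30 for bone and -2.39 ± 0.65 for osteoblasts (SD, n = 3 each; p = 0.2 by a two-sided exact permutation test). The ratio of *Ctgf* to *Cyr61* stayed within 1.96 to 3.42 over the 6 libraries although each gene varied far more, with a log2 difference between the labels of 0.27 (p = 0.3 by the same exact permutation test). The ratio of *Postn* to *Sparc* was 0.173, 0.346 and 0.0176 in bone and 0.116, 0.0212 and 0.0162 in osteoblasts, with a log2 difference of -1.57 (p = 0.3 by the same exact permutation test). It was at least 0.116 in the *Hbb-bt*-low libraries and at most 0.0212 in the *Hbb-bt*-high libraries. Adjusted over the 3 ratios each exact permutation p was 0.3, and 3 libraries against 3 cannot give a p below 0.1.

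Relatives of the members were described next. Of 15 related genes, 13 had a named feature and 8 averaged at least 1 FPKM. None passed the limma test between the labels, with a median log2 difference of -0.03. Of the 8, 2 were lower and 3 higher as FPKM in all 3 libraries with *Hbb-bt* above 1000 FPKM, close to the shares of all genes (16.9% and 38.4%). Scaled to named genes, 3 were lower and 2 higher, beside 47.4% and 21.7% of all genes. Follistatin-like 1 (*Fstl1*), a secreted glycoprotein with a domain like that of osteonectin, measured 165, 108 and 18.0 FPKM in bone and 135, 19.0 and 13.4 FPKM in osteoblasts, the order of *Thbs1*. The tenascin *Tnn*, known from bone and periosteum, also had this order, with 56.6, 64.7 and 14.0 FPKM in bone and 53.6, 10.1 and 6.69 FPKM in osteoblasts. *Comp*, a thrombospondin of cartilage and tendon, had the opposite order to *Thbs1* and *Thbs2*, with 27.1, 8.63 and 189 FPKM in bone and 9.92, 158 and 108 FPKM in osteoblasts. *Tgfbi*, the closest relative of periostin, measured 44.0, 22.9 and 31.9 FPKM in bone and 25.7, 31.7 and 30.7 FPKM in osteoblasts, so that its *Hbb-bt*-high and *Hbb-bt*-low libraries overlapped as FPKM where those of *Postn* did not, while scaled to named genes *Tgfbi* was lower in the *Hbb-bt*-high libraries (36.5 to 37.2 against 64.5 to 74.0). *Sparcl1* and *Smoc2*, relatives of osteonectin, were higher as FPKM in the *Hbb-bt*-high libraries, at 8.54 to 11.1 and 10.3 to 13.8 FPKM, against 0.224 to 7.49 and 1.19 to 5.84 FPKM in the others. Scaled to named genes, *Sparcl1* overlapped, bone replicate 1 being at 12.6 and bone replicate 3 at 9.75, while *Smoc2* kept this order. *Thbs3* (3.10 to 7.84 FPKM) and *Thbs4* (4.20 to 19.4 FPKM) overlapped.

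**Figure D5:**
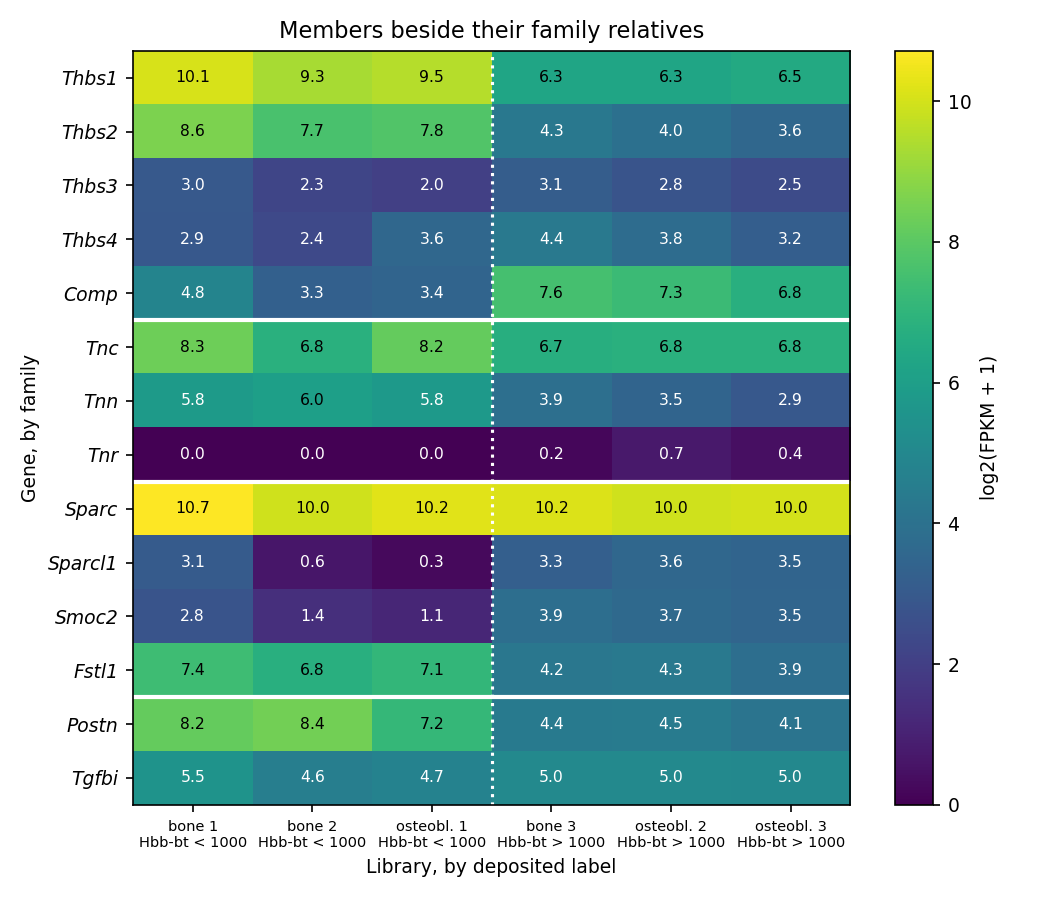
log2(FPKM + 1) of members and their relatives, grouped from top to bottom as thrombospondins, tenascins, the osteonectin family, and periostin with *Tgfbi*; each column is 1 library, and *Hbb-bt* is above 1000 FPKM to the right of the dotted line. *Thbs1*, *Thbs2*, *Tnn*, *Fstl1* and *Postn* are lower on the right, *Comp*, *Sparcl1* and *Smoc2* higher, an order that *Sparcl1* loses when scaled to named genes.

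Genes that act with the members were described in the same way, and none passed the limma test between the labels. Over all genes, 16.9% were lower and 38.4% higher in all 3 *Hbb-bt*-high libraries as FPKM. Scaled to named genes, the shares were 47.4% lower and 21.7% higher. Of 9 measured receptors of matricellular proteins, 7 were lower and 2 higher in all 3 libraries with *Hbb-bt* above 1000 FPKM (7 and 1 scaled to named genes), and their median log2 difference between the labels was -0.63. The integrin subunit *Itgb1* measured 107 to 196 FPKM in the *Hbb-bt*-low libraries and 19.0 to 28.9 FPKM in the others. *Itgb5* measured 111 to 213 and 30.1 to 34.5 FPKM, and *Stab1*, the scavenger receptor of macrophages that takes up osteonectin, 292 to 558 and 16.7 to 18.1 FPKM. *Itgb3*, the integrin subunit of osteoclasts and platelets, had the opposite order, with 2.62 to 9.97 and 52.6 to 73.8 FPKM. Of 11 tested genes of the YAP/TAZ-TEAD pathway, 6 were lower and 1 was higher as FPKM, and 9 were lower and 0 higher scaled to named genes, with a median log2 difference of -0.33. *Amotl2*, a YAP target, measured 28.9 to 60.6 and 9.27 to 10.8 FPKM, the phosphatase gene *Ptpn14* 7.91 to 17.6 and 4.03 to 6.33 FPKM, and *Wwtr1*, which codes for TAZ, 10.7 to 20.6 and 3.61 to 4.02 FPKM, while the receptor tyrosine kinase *Axl* was higher, at 23.4 to 45.2 and 64.0 to 70.4 FPKM. The order of *Axl* was lost when scaled to named genes, where it overlapped at 65.6 to 79.0 and 74.4 to 80.4.

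Of 9 measured genes of TGF-beta signaling, 5 were lower and 1 was higher as FPKM in the *Hbb-bt*-high libraries, 8 were lower and 0 higher scaled to named genes, and the median log2 difference between the labels was -0.50. Beside these counts, 16.9% of all genes were lower and 38.4% higher as FPKM, and 47.4% lower and 21.7% higher when scaled. The ligand gene *Tgfb1* measured 12.8 to 30.7 FPKM in the *Hbb-bt*-low libraries and 37.6 to 47.3 FPKM in the others, whereas *Tgfb3*, at 15.7 to 45.4 and 4.44 to 6.06 FPKM, and *Tgfb2* had the order of *Thbs1*. Scaled to named genes *Tgfb1* overlapped, at 35.9 to 78.8 and 43.7 to 54.1, and *Tgfb2* and *Tgfb3* were still lower in the *Hbb-bt*-high libraries. The receptor gene *Tgfbr2* overlapped as FPKM, at 22.7 to 45.0 and 18.4 to 28.8, and was lower in the *Hbb-bt*-high libraries when scaled (63.7 to 75.6 against 22.3 to 33.5). Of 5 measured matrix partners, 3 were lower as FPKM and 5 scaled to named genes in the *Hbb-bt*-high libraries, with a median log2 difference of -0.68 between the labels. *Col1a1* and *Col1a2*, the chains of type I collagen that osteonectin binds, overlapped as *Sparc* did, at 1499 to 3332 and 2001 to 3981 FPKM over the 6 libraries. Scaled to named genes they too were lower in the *Hbb-bt*-high libraries, *Col1a1* at 4556 to 8543 against 1742 to 2552 and *Col1a2* at 5918 to 7511 against 2325 to 2554. *Col3a1* measured 555 to 1394 FPKM in the *Hbb-bt*-low libraries and 145 to 284 FPKM in the others.

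Markers of other cell types moved with these values, and their part in the results was not tested. Over all genes, 16.9% were lower and 38.4% higher as FPKM in all 3 *Hbb-bt*-high libraries. The 5 macrophage markers were all lower in the *Hbb-bt*-high libraries, as 7 of the members were, with a summed level of 393 to 2636 FPKM under the label bone and 404 to 1498 FPKM under the label osteoblasts. The 4 measured erythroid markers (3.67 to 36343 FPKM under the label bone, 3.48 to 50254 FPKM under osteoblasts) and the 8 neutrophil markers (0.430 to 14919 FPKM and 1.75 to 18094 FPKM) were all higher there. The 6 measured megakaryocyte and platelet markers, the list that includes the cells storing thrombospondin-1, were also all higher, at 53.4 to 672 FPKM under the label bone and 86.9 to 846 FPKM under the label osteoblasts. In the *Hbb-bt*-low libraries *Ppbp* was at 0, *Pf4* at 41.1 to 93.3 FPKM, *Gp1bb* at 8.11 to 17.8 FPKM and *Itga2b* at 3.72 to 7.95 FPKM. All 3 measured cartilage markers, 0.00 to 2.84 FPKM for *Matn1* among them, were higher in the same libraries as *Comp* and summed to 3.07 to 276 FPKM under the label bone and 3.19 to 191 FPKM under the label osteoblasts. All 4 endothelial markers (0.273 to 31.8 and 2.46 to 43.9 FPKM) and all 3 measured skeletal muscle markers (0.451 to 943 and 0.0324 to 461 FPKM) were higher there as well. The tendon markers *Scx* and *Mkx* were lower, in a list that summed to 3.21 to 8.30 and 2.28 to 5.45 FPKM, with *Tnmd* at 0 in some libraries of both labels. The 5 measured osteocyte markers summed to 50.8 to 114 and 48.2 to 135 FPKM. Among them *Sost* was at 0.0661 to 0.198 FPKM in the *Hbb-bt*-low libraries and 15.8 to 22.7 FPKM in the *Hbb-bt*-high ones, and *Dmp1* at 50.04 to 127 and 22.5 to 24.2 FPKM.

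For each member, the genes with the most similar pattern were sought by the root mean square distance of log2(FPKM + 1) over the 6 libraries, after centering each gene on its mean. The distance is a description over 6 libraries. The nearest gene to *Ctgf* was the Wnt receptor *Fzd1*, at a distance of 0.07 (log2), with *Colec12* next at 0.10, while the median distance of all genes to *Ctgf* was 1.66. *Fzd1* measured 35.1, 17.6 and 2.14 FPKM in bone and 18.1, 1.90 and 2.11 FPKM in osteoblasts. *Thbs1* was nearest to the metalloproteinase *Adam9* (0.08) and *Cbr2* (0.12), *Wisp2* to *Srpx2* (0.12) and *Rgs16* (0.17), and *Cyr61* to the lysyl oxidase *Loxl3* (0.16) and *Wwp1* (0.18). *Thbs2* was nearest to the smooth muscle actin gene *Acta2* (0.20). *Acta2* measured 351, 136 and 11.8 FPKM in bone and 144, 8.03 and 6.79 FPKM in osteoblasts. *Postn* had the most distant neighbors of the 10 members, *Vsig4* (0.31), a receptor gene of macrophages, and *Havcr2* (0.34). *Wisp1* was nearest to *Panx3* (0.08), a channel gene of osteoblasts and cartilage, and to *Tnfrsf10b* (0.10). *Tnc* was nearest to *Cndp2* (0.14) and *Adgrl2* (0.15), *Nov* to *Atp9a* and *St6galnac6* (0.10 and 0.11), and *Sparc* to *Gm9816* and *2410131K14Rik* (0.05 and 0.06).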

How the data were processed

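The authors made TruSeq RNA v2 libraries from total RNA, aligned paired 75 bp reads to GRCm38 with HISAT2 2.0.5 and computed expression with StringTie 1.3.3 (versions from the submitters' processing notes). For every feature of each library the authors deposited FPKM, scaled to all mapped fragments, the TPM rescaled within the library, and the coverage, a mean signal per base. No counts were used.

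Features sharing a gene name were summed. Depth followed from the coverage that 1 FPKM stands for in a library. Groups follow the deposited labels. Genes averaging at least 1 FPKM (12112 of 48733, all 10 members among them) were compared on log2(FPKM + 1) with limma 3.58.1 in R 4.3.3, with a trended prior variance, and called at a Benjamini-Hochberg adjusted p under 0.05. Fold changes on this scale understate those of low genes such as *Nov*. The p-values measure the spread between these libraries. The code was tested on simulated data with a spread of 0.3 (log2), where it recovered 200 of 200 changed genes and called 10 unchanged ones. The members' standard errors were 0.525 to 1.33, so that test gives no measure of power in these data. Ratios were compared with exact permutation tests in Python 3.11.15 with scipy 1.17.1 (pandas 2.3.3, numpy 2.4.6 and matplotlib 3.10.9 for tables and plots).

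Whether a library's *Hbb-bt* exceeded 1000 FPKM was recorded. The libraries above and not above it were compared by order, range and gap, without a test, and no label was changed. The alternatives were pseudocounts of 0.1 and 0.01, every gene above 0 or a mean of at least 5, TPM, quantile normalization, scaling to named genes or to the 75th percentile, an untrended limma fit, a replicate block, each library left out, and bone replicate 3 against osteoblasts replicate 1 alone. The members and lists were chosen with earlier results of these data known. Named genes are the members, their relatives, receptors, YAP/TAZ-TEAD and TGF-beta genes, matrix partners, markers of 10 cell types and the 2 nearest genes of each member. Values were given for the 3 most abundant genes of a list. Some genes that these rules select are not reported here. Other list genes with values were picked after their values were seen. *Tnxb*, *Smoc1*, *Cd47*, *Lrp1*, *Lats2*, *Smad3*, *Ltbp1*, *Bmp1*, *Bglap*, *Mepe*, *Gp9* and marker genes that bring the number to 18 were not analysed here, as no feature was matched to their names. Promoter sequences are from RefSeq (GRCm38.p6), and the NCBIM37 genome was not used here.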

Additional observations from a re-analysis of the deposited data

How the results depend on the processing

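Every member kept a lower mean under the label osteoblasts, and none passed the limma test, under both other pseudocounts, both other filters, TPM, the 3 other scalings and limma without a trend. *Nov* gives no value under a mean FPKM of at least 5 or without bone replicate 1. The median of all genes moved from 0.12 to -0.03 (log2) with scaling to named genes. With the replicate number as a block (replicate block), limma called 46 genes higher and 3 lower, no member among them, and the 3 ratios gave exact sign-flip permutation p of 0.25 to 0.5. Deviations of same-numbered libraries from their label means correlated at 0.84 for number 1, -0.75 for number 2 and 0.83 for number 3. The libraries numbered 1 are both *Hbb-bt*-low, those numbered 3 both *Hbb-bt*-high, and those numbered 2 differ. These signs go with *Hbb-bt*, so they cannot show whether mice are shared. As the labels name no shared mouse, the main fit did not take same-numbered libraries as pairs. Libraries of 1 mouse may still be among them.

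With 1 library left out, the calls over all genes ranged from 0 to 312 higher and from 0 to 48 lower. The log2 difference ranged from -2.26 to -0.45 for *Ctgf*, -2.55 to -0.62 for *Cyr61*, -0.71 to -0.19 for *Nov*, -1.01 to -0.01 for *Wisp1*, -2.44 to -0.41 for *Wisp2*, -2.24 to -0.36 for *Thbs1*, -3.08 to -0.86 for *Thbs2*, -3.05 to -1.05 for *Postn*, -0.48 to 0.50 for *Tnc* and -0.37 to 0.011 for *Sparc*. *Tnc* was higher under the label osteoblasts without bone replicate 1 (0.50), osteoblasts replicate 2 (0.20) or osteoblasts replicate 3 (0.20), and *Sparc* without bone replicate 1 (0.011). The ratio of *Thbs2* to *Thbs1* ranged from -0.995 to -0.35, that of *Ctgf* to *Cyr61* from 0.07 to 0.40 and that of *Postn* to *Sparc* from -2.84 to -0.69.

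In bone replicate 3 and osteoblasts replicate 1 alone, all 10 directions reversed, to 2.53 (*Ctgf*), 2.64 (*Cyr61*), 0.45 (*Nov*), 1.88 (*Wisp1*), 3.41 (*Wisp2*), 3.23 (*Thbs1*), 3.49 (*Thbs2*), 2.74 (*Postn*), 1.45 (*Tnc*) and 0.083 (*Sparc*). For the 7 members lower in all 3 *Hbb-bt*-high libraries, this reversal follows from that order. The cause was not tested. No unnamed feature overlapped a member on its strand, so adding such features could not be run. Without counts, precision at low FPKM, as for *Nov*, is unknown.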

Other observations

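The 3 ratios given here were chosen after their values were seen. The ratio of *Sparc* to *Col1a1*, the main chain of type I collagen, ranged over 1.81 times in the 6 libraries, more than *Sparc* alone (1.698 times) and less than each of the other 9 members. It was 0.620, 0.595 and 0.514 in bone and 0.365, 0.661 and 0.579 in osteoblasts. Osteoblasts replicate 1 was the lowest, and the other 5 libraries lay between 0.514 and 0.661 whether or not *Hbb-bt* was above 1000 FPKM. The ratio of *Thbs1* to *Col1a1*, by comparison, was 0.394, 0.380 and 0.0347 in bone and 0.220, 0.0516 and 0.0508 in osteoblasts. Among the relatives, the ratio of *Comp* to *Thbs1* ran from 0.0135 to 0.0254 in the *Hbb-bt*-low libraries and from 1.19 to 2.44 in the other 3 libraries. The YAP/TAZ target *Ankrd1* was the only gene of the 5 lists of relatives, receptors, pathway genes and partners with an unadjusted p under 0.05. It measured 4.14, 2.42 and 6.95 FPKM in bone and 1.43, 0.840 and 0.433 FPKM in osteoblasts, lower in all 3 osteoblasts libraries, with a log2 difference of -1.48 (limma adjusted p = 0.999), and so unlike *Ctgf* and *Cyr61* its values were parted by label. Of the 12112 genes, 0.438% had this order by label. *Ankrd1* was picked from these lists by its p-value, and its levels are low.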
